A study of Mus musculus with 18 samples.

Results

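The small nucleolar RNA (snoRNA) host genes *Gas5*, *Snhg1*, *Snhg3*, *Snhg5*, *Snhg6*, *Snhg8* and *Snhg12* were followed by symbol, 7 of the 18659 genes of the expression table, across 16 RNA-seq libraries of serum-grown mESCs (mouse embryonic stem cells kept in FCS and LIF). All 7 passed the filter on low values, a summed value of at least 10. RNA was depleted of rRNA after 24 h of siRNA. Replicate set 1 held 1 library of scrambled siRNA (scr) and 3 libraries of SP, the SmartPool to *Stag1*, numbered 1a to 1c. In set 2, 1 library was made of each of scr, SP, 3p (siRNA to the 3′ end of *Stag1*), 5p (siRNA to its 5′ end), SATS (enzymatically prepared siRNA to the 5′ leader that the SATS promoter of *Stag1* makes) and untreated cells. Set 3 held scr, SP, 3p, 5p, SATS and an siRNA to luciferase. The study lists its luciferase control, like SATS and unlike scr, as an enzymatically made siRNA. All knockdowns were transient. The study calls its replicates independent without saying of what, and how 1a to 1c differ is not stated, so p-values measure the spread between these libraries. The design asks what reduced *Stag1* does to the transcriptome, and the study also looked at the nucleolus and at translation, to which these genes are linked by their snoRNAs and their starts.

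A snoRNA host gene makes a spliced RNA from its exons while the snoRNAs are cut out of its introns. Many snoRNAs guide the modification of rRNA in the nucleolus, those with boxes C and D mostly 2′-O-methylation and those with boxes H and ACA mostly pseudouridylation. Which of the snoRNAs named here do so was not examined. The exons of the non-coding hosts carry short open reading frames at most, and the spliced RNA of *Gas5* and its relatives is known as a substrate of nonsense-mediated decay, so that it accumulates when translation is blocked. Many of these hosts start with a terminal oligopyrimidine (TOP) motif, a C followed by an unbroken run of pyrimidines, which they share with the mRNAs of ribosomal proteins.

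The sequence around the listed starts is shown because the TOP motif is the feature by which these genes are tied to translation. Each line gives the 25 bases before and the 25 bases from the RefSeq start on (GRCm38.p6, strand of the gene). Capitals mark a run of at least 5 pyrimidines that opens with a C no more than 5 bases from the start.
*Gas5*, first listed start, chr1:161034576-161034625, plus strand: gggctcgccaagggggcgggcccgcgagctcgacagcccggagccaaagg
*Gas5*, second listed start, chr1:161035141-161035190, plus strand: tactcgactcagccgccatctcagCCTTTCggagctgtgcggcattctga
*Snhg1*, chr19:8723462-8723511, plus strand: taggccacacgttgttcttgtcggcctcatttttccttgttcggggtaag
*Snhg3*, chr4:132353662-132353711, minus strand: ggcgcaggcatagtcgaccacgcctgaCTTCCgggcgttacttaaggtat
*Snhg5*, chr9:88522873-88522922, minus strand: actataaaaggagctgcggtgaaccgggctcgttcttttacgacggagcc
*Snhg8*, chr3:123508312-123508361, minus strand: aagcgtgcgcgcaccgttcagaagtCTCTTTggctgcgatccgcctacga
*Snhg12*, chr4:132308653-132308702, plus strand: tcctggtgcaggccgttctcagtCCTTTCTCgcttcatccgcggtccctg
*Snhg6* had no entry. Such a run lay near 4 of these 7 starts (57.1%), and near 18.3% of all 32841 mouse starts on the assembled chromosomes. In 2 of 7, the second start of *Gas5* and *Snhg8* (28.6%), the start base itself was a C that opened 5 or more pyrimidines, as in 2.5% of all starts. These are matches of letters in the listed window and do not locate the start used in these cells.

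By position (GENCODE M21, GRCm38), *Gas5* spans bases 161034422 to 161038539 of chromosome 1 and *Snhg6* bases 9941959 to 9944118 of the same chromosome. *Snhg1* lies on chromosome 19 (8723475 to 8726443), *Snhg5* on chromosome 9 (88521050 to 88522929) and *Snhg8* on chromosome 3 (123507552 to 123508404). *Snhg12* (132308623 to 132311024) and *Snhg3* (132348014 to 132353686) both lie on chromosome 4. The annotation places 27 snoRNAs inside the 7 genes, all of them in an intron of a spliced transcript: 9 in *Gas5*, 8 in *Snhg1*, 4 in *Snhg12*, 2 each in *Snhg3* and *Snhg5*, and 1 each in *Snhg6* and *Snhg8*. Of the 27, 7 had a row of their own in the table. An exon of another spliced transcript overlapped all 4 snoRNAs of *Snhg12*, *Snord22* and 1 other in *Snhg1*, and *Snora73a* in *Snhg3*. Where a read lies on more than 1 annotated gene, the table does not show to which row it went.

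The snoRNAs that had rows and that the results return to are printed from the GENCODE M21 transcripts, all on the plus strand, with box C (TGATGA, towards the 5′ end), box D (CTGA, towards the 3′ end) or the terminal ACA in capitals where these letters were found.
*Snord47*, box C/D, in *Gas5*, chr1:161038082-161038158: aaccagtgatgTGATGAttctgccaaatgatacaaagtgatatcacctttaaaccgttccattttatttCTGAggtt
*Snord22*, box C/D, in *Snhg1*, chr19:8725866-8725991: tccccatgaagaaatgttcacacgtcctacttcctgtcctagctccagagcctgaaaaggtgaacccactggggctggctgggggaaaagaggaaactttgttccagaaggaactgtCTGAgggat
*Snord99*, box C/D, in *Snhg12*, chr4:132310691-132310764: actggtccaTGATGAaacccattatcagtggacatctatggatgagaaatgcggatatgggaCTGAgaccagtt
*Snora61*, box H/ACA, in *Snhg12*, chr4:132310240-132310369: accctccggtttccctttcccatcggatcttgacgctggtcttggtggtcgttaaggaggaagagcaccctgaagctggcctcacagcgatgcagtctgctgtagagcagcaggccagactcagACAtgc
*Snora44*, also of *Snhg12*, had no ACA at that distance from its annotated end.

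Depth was 9023224 to 14040830 reads on genes per library in set 1 and 32137666 to 45660840 in sets 2 and 3. *Rn45s*, the rRNA precursor, took 69.2% to 79.1% of them in set 1 and 14.7% to 23.9% in sets 2 and 3, so that set 1 left 1883691 to 4321867 reads for all other genes. The 7 hosts together took 0.0409% to 0.0520% of the reads outside *Rn45s* in set 1 and 0.0269% to 0.0497% in sets 2 and 3. *Stag1* was at 17.5% to 32.8% of the scr library of its set in the SP libraries, at 17.3% and 20.9% with 3p, at 19.0% and 23.5% with 5p and at 49.7% and 50.5% with SATS. ESC markers (7 of 7 in the table, *Pou5f1* and *Nanog* among them) summed to 27362 to 59734. Fibroblast markers such as *Col1a1* and *Col3a1* (6 of 6 in the table, none at 0 throughout) summed to 83.6 to 459 in set 1, to 2594 to 3673 in the siRNA libraries of set 2 and 5691 in its untreated library, and to 341 to 551 in set 3. Primitive endoderm markers summed to 158 to 522 and mesoderm markers to 65.8 to 561. The fibroblast sum was higher in every library of set 2 than in any other library, and the part of these markers in the levels of the hosts was not tested. In bulk RNA, fewer cells of a type and less RNA per cell cannot be told apart.

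The deposited value of a gene is its reads divided by 1 size factor per library, so that levels of different genes can be compared only per length. Per kb of the median spliced transcript, over the 12 libraries of sets 2 and 3, the order of levels was *Gas5* (median 2367, range 1617 to 3469), *Snhg1* (1838, 1436 to 3291), *Snhg5* (1257, 975 to 1869), *Snhg3* (682, 508 to 870.1), *Snhg8* (654, 536 to 832), *Snhg12* (349, 319 to 378) and *Snhg6* (199.9, 167 to 291). The ranges of *Gas5* and *Snhg1*, of *Snhg1* and *Snhg5*, and of *Snhg3* and *Snhg8* overlapped, and those of the other neighbours in the order did not. Per kb of all exons joined together, *Snhg8* (529) stood above *Snhg3* (302). *Snhg12* varied least over these 12 libraries, with a coefficient of variation of 5.36% of its value, and *Snhg1* most, with 26.1%.

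**Figure D1:**
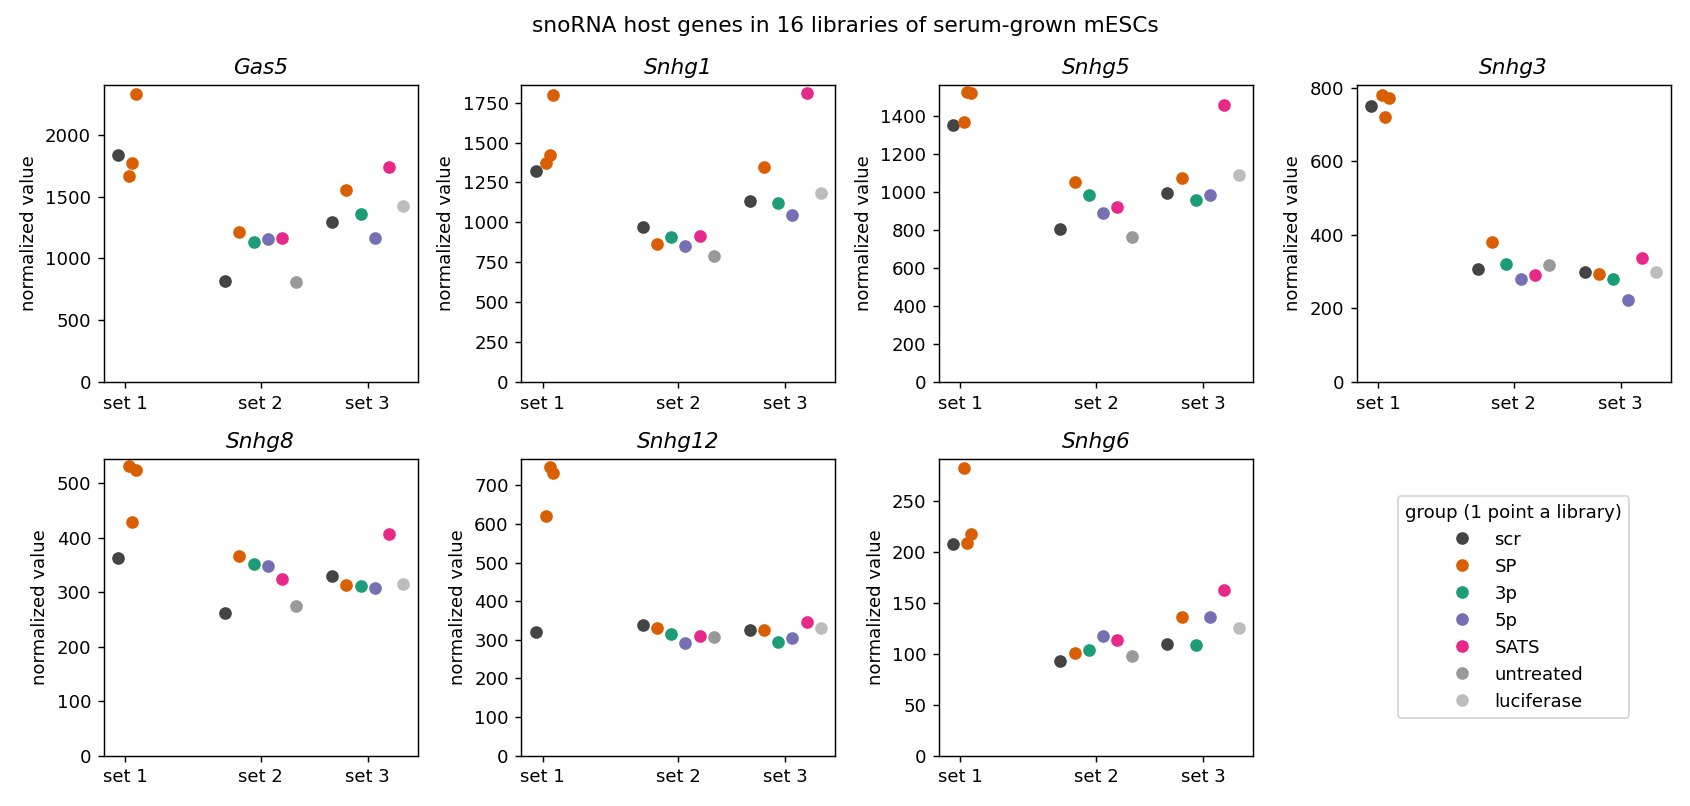
Normalized value (reads over the size factor of the library, linear axis from 0) of each host gene in the 16 libraries, grouped by replicate set and coloured by siRNA, 1 point a library. *Snhg3* and *Snhg6* sit higher in all 4 libraries of set 1 than in any of the 12 others, and *Snhg12* is high in the 3 SP libraries of set 1 alone.

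The hosts of box C/D snoRNAs come first. *Gas5*, a host that is known to accumulate in growth-arrested cells, had normalized values of 1835 in scr and 1669, 1775 and 2327 in the SP libraries of set 1, in the order 1a to 1c. In set 2 it was at 814 in scr, 1212 in SP, 1129 in 3p, 1153 in 5p, 1161 in SATS and 812 in untreated cells. In set 3 it was at 1296 in scr, 1554 in SP, 1357 in 3p, 1164 in 5p, 1742 in SATS and 1427 with luciferase siRNA. Every knockdown library of set 2 was therefore above both libraries of that set without *Stag1* siRNA. In set 3 only SP and SATS were above both controls, and 5p was below both.

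*Snhg1*, the host of *Snord22* and of 7 further snoRNAs, was at 1319 in scr and at 1373, 1425 and 1796 in the SP libraries of set 1. In set 2 it was at 973 in scr, 864 in SP, 909.7 in 3p, 849.98 in 5p, 914 in SATS and 789.8 in untreated cells. In set 3 it was at 1131 in scr, 1346 in SP, 1119 in 3p, 1048 in 5p, 1810.2 in SATS and 1185 with luciferase siRNA. The scr library was the highest of set 2, and SATS was the highest of set 3.

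*Snhg5*, the host of *Snord50a* and *Snord50b*, was at 1353 in scr and at 1368, 1524 and 1522 in the SP libraries of set 1. Its values in set 2 were 803 in scr, 1053 in SP, 982 in 3p, 888 in 5p, 923 in SATS and 762 in untreated cells, so that all 4 knockdowns were above both controls. In set 3 they were 994 in scr, 1070.35 in SP, 959.7 in 3p, 981 in 5p, 1459.5 in SATS and 1087 with luciferase siRNA, and only SATS was above both controls.

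*Snhg6*, the host of *Snord87*, had the lowest values of the group. It was at 208 in scr and 282, 209 and 217 in the SP libraries of set 1, which rest on 31, 60, 65 and 27 reads. In set 2 it was at 93.1 in scr, 101 in SP, 104 in 3p, 117 in 5p, 114 in SATS and 98.1 in untreated cells. Its values in set 3 were 109.9 in scr, 136 in SP, 108 in 3p, 136 in 5p, 163 in SATS and 125 with luciferase siRNA. In both sets SP, 5p and SATS were above both controls.

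Among the hosts of box H/ACA snoRNAs, *Snhg3*, which holds *Snora73a* and *Snora73b*, was at 750.0 in scr and at 780.3, 720.4 and 773 in the SP libraries of set 1. In set 2 it was at 307 in scr, 380.3 in SP, 320.4 in 3p, 281 in 5p, 292 in SATS and 318 in untreated cells. Set 3 had values of 298 in scr, 294 in SP, 281 in 3p, 222 in 5p, 337 in SATS and 298 with luciferase siRNA. In sets 2 and 3 alike the lowest value was that of 5p. *Snhg3* lies almost wholly inside *Rcc1* on the same strand (5592 of 5673 bp), so that the reads of their shared exons cannot be told apart.

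*Snhg8*, which holds *Snora24*, was at 362 in scr and 531, 428 and 523 in the SP libraries of set 1. In set 2 it was at 262 in scr, 367 in SP, 352 in 3p, 348 in 5p, 323 in SATS and 274 in untreated cells, with all 4 knockdowns above both controls. Set 3 gave 329 in scr, 313 in SP, 312 in 3p, 308 in 5p, 406 in SATS and 316 with luciferase siRNA, and only SATS was above both controls.

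*Snhg12*, which holds snoRNAs of both classes, was at 321 in scr and at 621, 746 and 733 in the SP libraries of set 1. In set 2 its values were 338 in scr, 331 in SP, 314 in 3p, 292 in 5p, 309 in SATS and 306 in untreated cells. In set 3 they were 325 in scr, 325 in SP, 295 in 3p, 306 in 5p, 346 in SATS and 329 with luciferase siRNA. The 12 libraries of sets 2 and 3 thus stayed between 292 and 346 whatever the siRNA, and the scr library of set 1 lay in the same range.

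**Figure D2:**
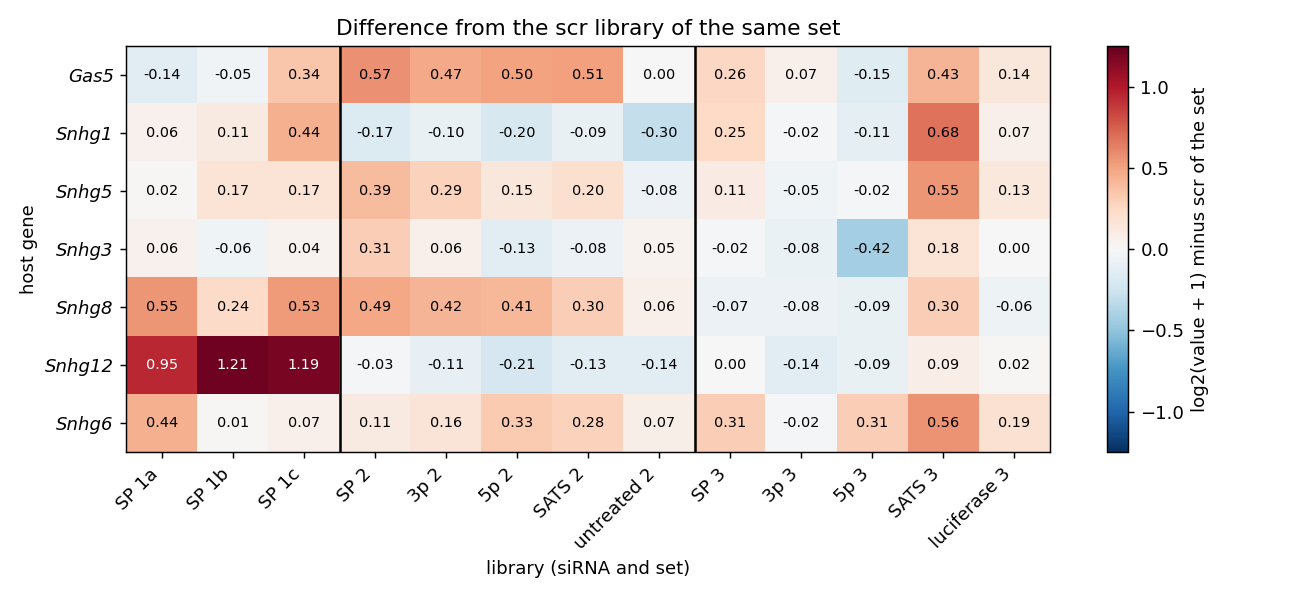
Difference of log2(value + 1) between each library and the scr library of its set, with the host genes as rows, the 13 libraries other than scr as columns, black lines between sets and the difference printed in each cell. In SATS of set 3 all 7 hosts are above scr (0.09 to 0.68), and the largest differences are those of *Snhg12* in set 1 (0.95 to 1.21).

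The comparison of SATS with scr gave the largest median difference of the panel for these genes, but none of the 7 passed the test. Over sets 2 and 3, *Gas5* was at 1055 ± 341 in scr and 1451 ± 411 in SATS, *Snhg6* at 101 ± 11.9 and 138 ± 34.8, *Snhg5* at 899 ± 136 and 1191 ± 380 and *Snhg8* at 295 ± 47.5 and 365 ± 58.8 (mean ± SD, n = 2 libraries each). The log2 fold changes were 0.47 for *Gas5* (standard error 0.27, 95% interval −0.15 to 1.09), 0.42 for *Snhg6*, 0.38 for *Snhg5*, 0.30 for *Snhg8*, 0.29 for *Snhg1*, 0.05 for *Snhg3* and −0.02 for *Snhg12*. Their median was 0.30, and the median of all 16490 genes tested was −0.004. By limma with Benjamini-Hochberg adjustment the lowest adjusted p of a host was 0.99977, and 0 of 16490 genes (0%) were called, as in edgeR. An unadjusted p under 0.05 was reached by 650 genes and by none of the hosts. When the set was a replicate block, 436 genes were called (2.64%). They included *Stag1* (adjusted p = 0.0013 by limma) and again 0 of the 7 hosts. *Gas5* then came closest, with a standard error of 0.12, a 95% interval of 0.21 to 0.73 and an adjusted p of 0.0563 (limma), or 0.0533 in edgeR with the block. Another 3 hosts, *Snhg6*, *Snhg5* and *Snhg8*, had an unadjusted p under 0.05 in that limma fit, 4 of 7 in all, as had 18.8% of all genes.

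*Gas5*, *Snhg5*, *Snhg6* and *Snhg8* were higher in SATS than in scr in both sets, 4 of 7 hosts, and so were 32.4% of the genes tested. The sets differed in size. The median difference of the 7 hosts from scr of the same set was 0.20 in set 2, with 4 hosts above scr, and 0.43 in set 3, with 7 above scr, while the median gene was at −0.006 and −0.004. Of all genes, 48.8% were above scr in SATS of set 2 and 48.9% in that of set 3. Without the SATS library of set 3 the median log2 fold change of the hosts was 0.05, and without that of set 2 it was 0.68. *Snhg5* was at 0.0465 and 0.71 without the same libraries. *Gas5* ran from 0.13 without the scr library of set 2 to 0.80 without that of set 3. Libraries were left out of the fit without the block, so that the difference in level between the sets enters these values. Within the sets, *Gas5* in SATS was 0.51 above scr in set 2 and 0.43 above it in set 3 (log2). *Snhg1* depended most on the set, with 0.939 times the scr value in set 2 (95% counting interval 0.887 to 0.993) and 1.60 times in set 3 (1.53 to 1.68). Intervals of ratios come from the recovered reads by the exact binomial method and cover counting error only.

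**Figure D3:**
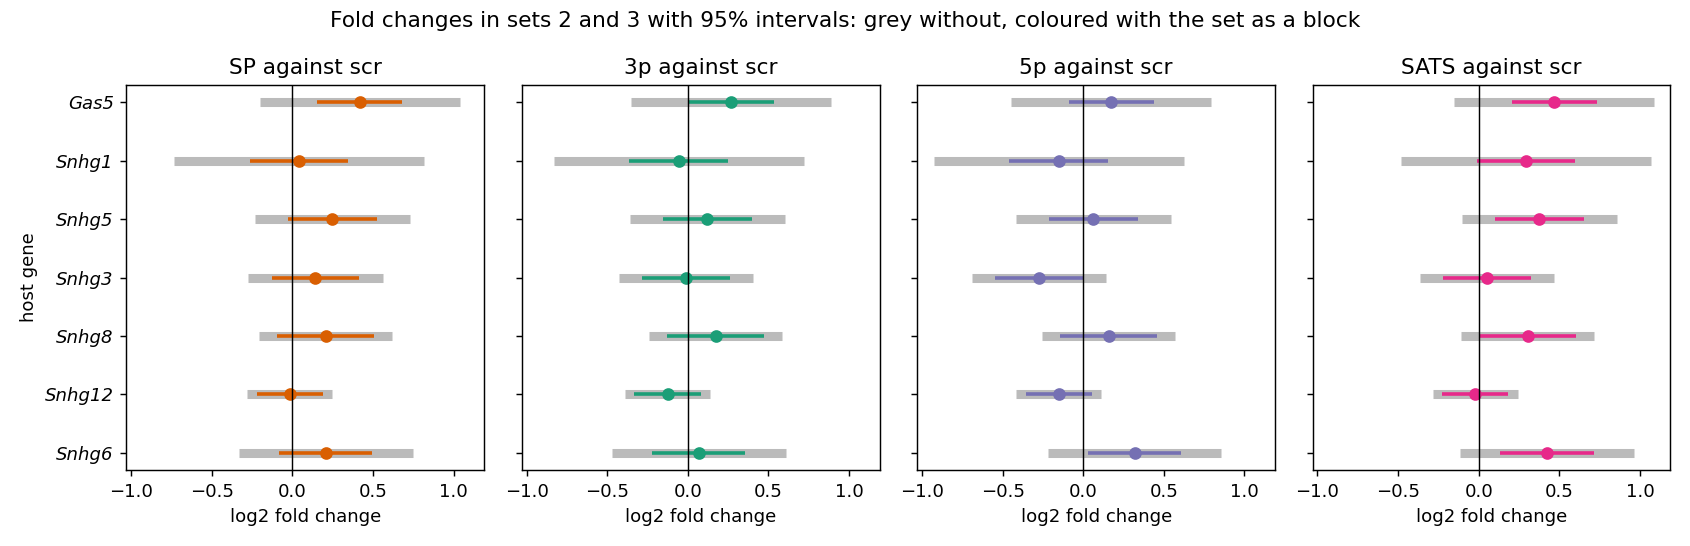
Log2 fold change of each host gene (rows) against scr in sets 2 and 3 for SP, 3p, 5p and SATS, from limma on log2(value + 1), with 95% intervals without (grey) and with (coloured) the replicate set as a block. Without the block every interval holds 0, and with it those of *Gas5* for SP, 3p and SATS, of *Snhg6* for 5p and SATS and of *Snhg5* and *Snhg8* for SATS lie above 0 and that of *Snhg3* for 5p below 0, although no host passed the adjusted threshold.

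With SP, *Gas5* again had the largest difference in sets 2 and 3, a log2 fold change of 0.42 (standard error 0.27), from 1055 ± 341 in scr to 1383 ± 242 (mean ± SD, n = 2). *Snhg5* was at 0.25, *Snhg6* at 0.21, *Snhg8* at 0.21, *Snhg3* at 0.14, *Snhg1* at 0.04 and *Snhg12* at −0.02. The limma fit called 1 of 16490 genes (0.00606%), which was *Stag1*, and 0 of 7 hosts, none of which had an unadjusted p under 0.05. With the block 123 genes (0.746%) and 0 of 7 hosts were called, and the adjusted p of *Gas5* was 0.156 by limma. Without the scr library of set 2 its log2 fold change was 0.08, and without that of set 3 it was 0.75. Those refits had no block, so that the difference between the sets enters them. Within the sets, *Gas5* in SP was 0.57 above scr in set 2 and 0.26 above it in set 3 (log2). Higher in SP in both sets were *Gas5*, *Snhg5* and *Snhg6*, 3 of 7, beside 28.5% of the genes.

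Over all 3 sets, for which the SP values of set 1 were averaged, *Gas5*, *Snhg5* and *Snhg6* were above scr in every set, 3 of 7, beside 16% of 15970 genes. In set 1 the average of *Gas5* was above scr through SP 1c alone (1.27 times), with 0.909 times in 1a and 0.968 times in 1b. *Snhg6* was at 1.36, 1.01 and 1.05 times scr in SP 1a, 1b and 1c. The log2 fold changes of all 7 were above 0, from 0.10 for *Snhg1* to 0.36 for *Snhg12*, with a median of 0.21, and 52.8% of all genes were above 0. The limma fit called 0 of 15970 genes (0%) with 84 at an unadjusted p under 0.05, and with the block also 0 (0%) with 935; of the hosts, 0 and then only *Gas5* (log2 fold change 0.30, 95% interval 0.04 to 0.57 with the block) were among those with an unadjusted p under 0.05. *Stag1*, with a log2 fold change of −2.15, was not called in these limma fits either (adjusted p = 0.225, and 0.0534 with the block). Without set 1 the value of *Snhg12* turned from 0.36 to −0.02, and without set 2 that of *Snhg3* turned from 0.10 to −0.0027.

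The 3p and 5p siRNAs are directed at opposite ends of *Stag1*. With 3p, the largest log2 fold change of a host was that of *Gas5*, 0.27 (95% interval −0.35 to 0.89), and the median of the 7 was 0.07. The test called 1 of 16490 genes (0.00606%) without the block and 47 (0.285%) with it, and 0 of 7 hosts in either. *Gas5* alone was above scr in both sets, 1 of 7, beside 25.9% of genes. Without the scr library of set 2, the log2 fold change of *Gas5* was −0.07. That refit had no block, so that the difference between the sets enters it. Within the sets, *Gas5* in 3p was 0.47 above scr in set 2 and 0.07 above it in set 3 (log2).

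With 5p, *Snhg6* was the only host above scr in both sets, 1 of 7, beside 32.7% of genes, with a log2 fold change of 0.32 (95% interval −0.22 to 0.86). *Snhg3* was below scr in both sets, at 303 ± 6.74 in scr and 252 ± 41.8 in 5p (mean ± SD, n = 2), a log2 fold change of −0.28 (−0.69 to 0.14). It was −0.11 without the 5p library of set 3 and −0.45 without that of set 2. *Gas5* was at 1.42 times scr in set 2 (95% counting interval 1.33 to 1.50) and at 0.899 times in set 3 (0.853 to 0.947), so that the sets went opposite ways. The limma fit called 2 of 16490 genes (0.0121%) without the block and 391 (2.37%) with it, and 0 of 7 hosts in either. With the block, *Snhg6* and *Snhg3* had adjusted p of 0.264 and 0.312 by limma.

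Compared directly over both sets, 5p was below 3p for 6 of the 7 hosts, with a median log2 difference of −0.06. Of all genes, 53.2% were above 0 in this comparison. Within the sets, *Gas5* in set 2 and *Snhg5* and *Snhg12* in set 3 were higher with 5p than with 3p. The largest differences over both sets were −0.26 for *Snhg3* (95% interval −0.68 to 0.15) and 0.25 for *Snhg6* (−0.29 to 0.79). For *Snhg3* the value was −0.094 without the 5p library of set 3 and −0.43 without that of set 2. *Snhg6* was higher with 5p in both sets, 1 of 7, beside 30.1% of genes. No host was called, in a limma fit that called 0 of 16490 genes (0%) without the block, where 674 had an unadjusted p under 0.05 and edgeR also called 0, and 537 (3.26%) with it. The 4 comparisons with scr share the same scr libraries, so that a low or high scr library moves all of them. The study lists the siRNAs of 3p among those of the SP pool as well, so that SP and 3p are not separate reagents.

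The libraries without *Stag1* siRNA show how far the hosts vary. Against scr of set 2, untreated cells had *Gas5* at 0.998 times (95% counting interval 0.936 to 1.06) and *Snhg1* at 0.811 times (0.762 to 0.863). In that library 3 of 7 hosts were above scr, beside 50.1% of genes. Against scr of set 3, the luciferase library had *Gas5* at 1.10 times (1.05 to 1.16) and *Snhg6* at 1.14 times (0.964 to 1.35). There 6 of 7 hosts were above scr, beside 47.4% of genes, with a median log2 difference of the hosts of 0.07. Both the target and the preparation of the siRNA differ between SATS and scr, so that the 2 cannot be told apart in that comparison. Between the scr libraries themselves, set 3 over set 2, *Gas5* differed by 1.59 times and *Snhg12* by 0.962 times. For *Gas5* this difference between sets is larger than that between SATS and scr within either set (1.43 and 1.34 times). The ratios within a set do not contain it, so that it does not measure their spread. Within the sets, the untreated and luciferase libraries were at 0.998 and 1.10 times scr, with 1 library each.

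For set 1, which holds 1 scr library, values and ratios are given without a test. *Snhg12* was at 1.93 times scr in SP 1a (95% counting interval 1.38 to 2.75), 2.32 times in 1b (1.69 to 3.24) and 2.28 times in 1c (1.59 to 3.31). These ratios rest on 48 reads in scr and 132, 232 and 91 in SP. The markers moved in the same libraries. ESC markers summed to 59734 in scr and to 47248, 41304 and 32254 in SP 1a to 1c. Fibroblast markers summed to 194 in scr and 197, 83.6 and 459 in SP, and mesoderm markers to 100.4 and 65.8, 86.8 and 354. Their part in the values of *Snhg12* was not tested. In the second table of the authors, scaled by edgeR for set 1 alone, the same libraries had CPM values of 5.42, 10.5, 12.7 and 12.4. Of the 6681 genes whose mean value was 50 or more and whose scr reads in set 1 were at least as many, 3 (0.0449%) were as far above scr in every SP library: *Snhg12* itself and the genes *Fam208b* and *Lef1*, named after their values were seen. Over all 11058 genes whose mean value was 50 or more, however few their scr reads, 196 (1.77%) were. The cut-offs were taken from *Snhg12* itself, 48 scr reads and a lowest ratio of 1.93, so that neither share is a test. *Snhg8* was also above scr in the 3 SP libraries of set 1, at 1.47 (1.05 to 2.07), 1.18 (0.856 to 1.65) and 1.45 (0.993 to 2.12) times. *Snhg3* was within 0.961 to 1.04 times.

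Levels also differed between sets. *Snhg3* was at 720.4 to 780.3 in the 4 libraries of set 1 and at 222 to 380.3 in the other 12, and *Snhg6* at 208 to 282 and 93.1 to 163. These were 2 of 7 hosts with no overlap between set 1 and the rest in this direction, beside 9.03% of the 11058 genes whose mean value was 50 or more. In scr, *Snhg3* of set 1 was at 2.48 times the mean of sets 2 and 3, *Snhg6* at 2.05 times and *Gas5* at 1.74 times. Depth and the share of *Rn45s* differ between the same libraries, so that set and depth cannot be told apart.

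The snoRNA rows are set beside their hosts. *Snord22*, in *Snhg1*, was at 81.8 in scr, 79.98 in SP, 134 in 3p, 205 in 5p, 195 in SATS and 75.7 in untreated cells of set 2. In set 3 it was at 142 in scr, 153 in SP, 157 in 3p, 128 in 5p, 209 in SATS and 123 with luciferase siRNA. In set 2 the ratio to scr was thus 2.51 with 5p (95% counting interval 2.11 to 2.99) and 2.39 with SATS (2.02 to 2.82), while *Snhg1* itself was at 0.873 and 0.939 times in the same libraries. The host and the snoRNA row lay closer together in set 3. In set 3 *Snord22* was at 0.902 times with 5p (0.768 to 1.06) and 1.48 times with SATS (1.29 to 1.69), where *Snhg1* was at 0.927 and 1.60 times. Its log2 fold change with SATS was 0.90 (standard error 0.38), with an adjusted p of 0.99977 by limma and of 0.0857 with the block. In set 1 it was at 388 in scr and 310.3, 293 and 813 in SP.

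*Snord47*, in *Gas5*, rested on few reads, 17 to 74 in sets 2 and 3. It was at 12.2 in scr, 13.9 in SP, 11.6 in 3p, 16.2 in 5p, 16.2 in SATS and 7.44 in untreated cells of set 2. In set 3 these groups had 17.9, 18.7, 19.4, 22.2 and 26.7, and the luciferase library had 23.5, more than 5p. *Snora61*, in *Snhg12*, was at 53.3 in scr and 73.8, 80.2, 67.8 and 66.3 in SP, 3p, 5p and SATS of set 2. Set 3 gave 58.7 in scr and 48.2, 56.4, 55.0 and 78.7 in those groups. In the SP libraries of set 1, where *Snhg12* was high, *Snora61* was at 1.67 (0.908 to 3.20), 1.35 (0.749 to 2.56) and 1.80 (0.919 to 3.63) times scr, and *Snora44* at 0.907, 0.420 and 1.55 times. *Snord99*, also in *Snhg12*, was at 31.0 in scr, 30.7 in SP, 28.3 in 3p, 41.5 in 5p, 31.0 in SATS and 22.3 in untreated cells of set 2. In set 3 it was at 65.5 in scr, 69.3 in SATS and 66.7 with luciferase siRNA, and lower with SP (0.719 times scr, 95% counting interval 0.566 to 0.911), 3p (0.592, 0.452 to 0.772) and 5p (0.580, 0.439 to 0.760). In set 2 the same groups were at 0.988, 0.911 and 1.34 times scr, with counting intervals that hold 1. Of the 7 snoRNA rows, 0 were called in any of the 6 comparisons, with or without the block. Reads of a mature snoRNA and of unspliced host RNA cannot be told apart in these rows.

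**Figure D4:**
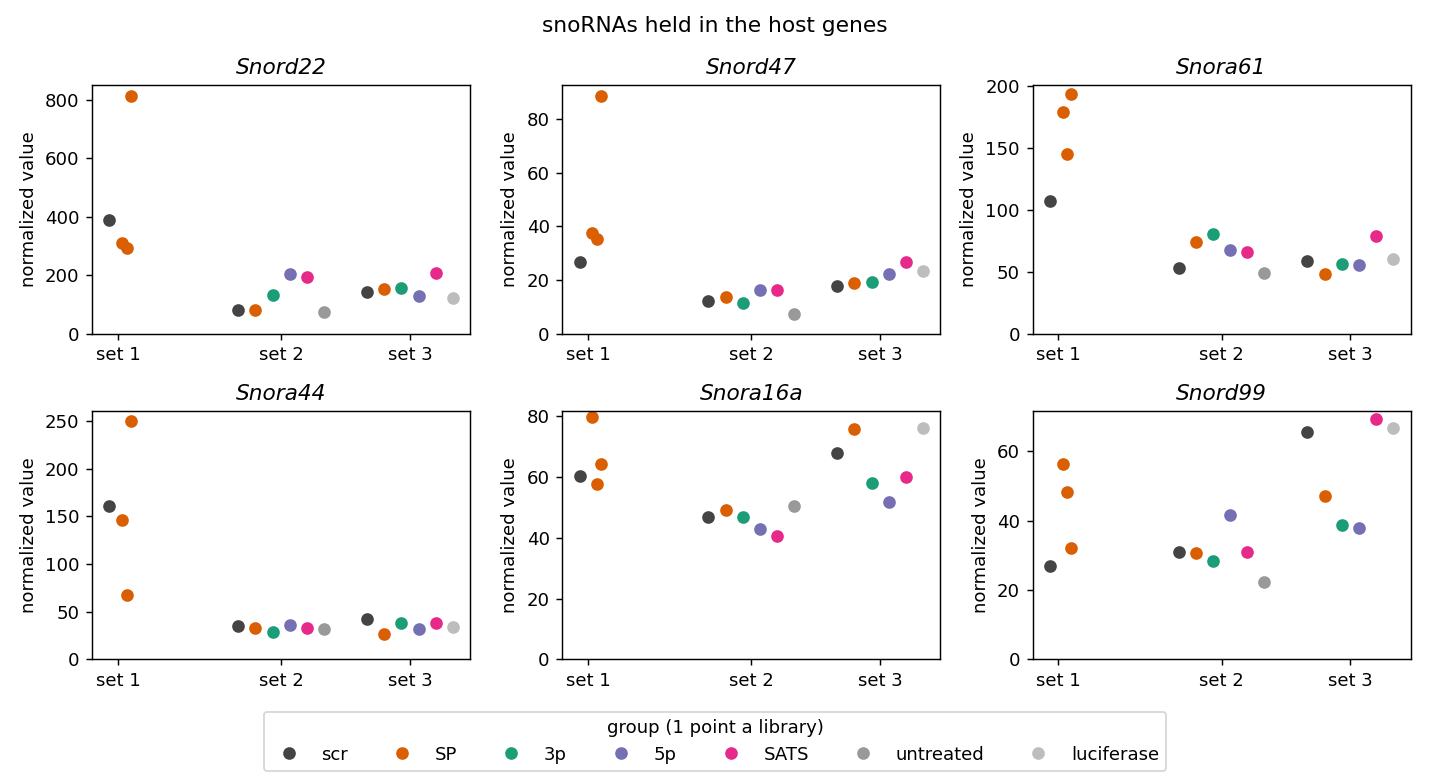
Normalized value (linear axis from 0) of 6 snoRNAs held in the host genes across the 16 libraries, grouped by set and coloured by siRNA, 1 point a library. *Snord22* is at 195 to 205 with 5p and SATS against 81.8 in scr of set 2, and *Snora44* spans 67.5 to 249.7 among the 3 SP libraries of set 1.

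The genes next to the hosts are given for comparison. *Slc3a2*, an amino acid transporter subunit that starts 106 bp from *Snhg1* on the opposite strand, had a log2 fold change of −0.13 with SATS, *Zbtb37*, which overlaps the start of *Gas5* by 428 bp on the opposite strand, one of −0.15, and *Rcc1*, a regulator of Ran, one of −0.08. Of the 16 neighbours with a row, 0 were called against scr with any siRNA of the panel, with or without the block, and their median log2 fold change with SATS was 0.01. Between 5p and 3p, *Phactr4*, next to *Snhg3*, was lower (log2 −0.42, standard error 0.10, adjusted p = 0.0292) and *Syncrip*, next to *Snhg5*, higher (0.29, standard error 0.07, adjusted p = 0.0424) in the limma fit with the block; without the block neither was called. Because the sources state a strand setting for paired-end libraries only and do not give the read type of each library, reads of *Gas5* and *Zbtb37* in their overlap cannot be told apart in every library.

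Other genes of the pathway were read from lists. Of 15 other non-coding snoRNA hosts, 11 had a row, among them *Snhg17*, *Dancr* and *Rian*, and 0 were called in any comparison. Their median log2 fold change with SATS was 0.01, with 6 of 11 above 0, where that of the 7 hosts was 0.30. The 11 ran from −0.23 for *Snhg11* to 0.71 for *Snhg14*, and *Rian* was at 0.32. *Snhg14* had an adjusted p of 0.0550 by limma with the block. Rises of this size were thus not confined to the 7 hosts. Of 39 protein-coding snoRNA hosts, which are mostly ribosomal protein and translation factor genes, 38 were tested and 33 had a log2 fold change above 0 with SATS, with a median of 0.15, beside 49.3% of all genes above 0. None of the 38 was called without the block. With it, where 436 of 16490 genes were called with SATS and 313 of them were higher, 4 rose, led by *Rpl21* (log2 0.64, standard error 0.14, adjusted p = 0.0356 by limma), a protein of the large ribosomal subunit whose near-identical pseudogenes can share its reads.

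Of 18 box C/D and H/ACA snoRNP proteins and assembly factors, 17 were tested and 1, *Nop10*, a core protein of box H/ACA snoRNPs, rose with SATS under the block (0.49, standard error 0.11, adjusted p = 0.0368 by limma). Among 17 tested TOP mRNAs other than those of ribosomal proteins 1 rose, *Eif3e*, a subunit of the initiation factor eIF3 (0.57, standard error 0.11, adjusted p = 0.0226), and their median was 0.08. In the same limma fit without the block, and with SP, 3p or 5p against scr in either fit, 0 genes of these lists were called.

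Across the 12 libraries of sets 2 and 3, centred within each set, 20 of the 21 pairs of hosts had a correlation of log2 values above 0, with a median r of 0.59. The same share over pairs of all genes was not computed. The highest was that of *Snhg5* and *Snhg8* (0.89) and the lowest that of *Snhg3* and *Snhg6* (−0.02). Set against the mean of the other 6, *Snhg5* had an r of 0.96 and *Snhg12* one of 0.47, which ranked 1 and 1707 when set among 11019 other genes. *Snhg8* ranked 59, *Gas5* 78, *Snhg1* 136, *Snhg6* 836 and *Snhg3* 1409. The genes most like the mean of the 7 were *Hist1h2ag* (r = 0.96), *Taf1d* (0.95), *Mrpl50* (0.93), *Clk1* (0.92) and *Gm13051* (0.91). Of these, *Taf1d* is on the list of protein-coding snoRNA hosts. These values describe 12 libraries, which share their depth and scaling between genes, and carry no p-value.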

How the data were processed

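The 16 RNA-seq libraries came from mESCs in serum and fell into 3 replicate sets; 2 libraries of 2i cells were not analysed here. The authors aligned reads to mm10 with HISAT2, counted them with featureCounts and deposited a normalized signal: reads over DESeq2 (1.14.1) size factors for all sets, and, for set 1, CPM scaled by edgeR (3.16.5). Values of a library were whole multiples of 1 read for 100% of values (within 0.01 read), which gave the depth and the reads behind each value; PCR reads are not independent molecules. A strand setting is stated for paired-end libraries.

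log2(value + 1) was fitted for genes whose values summed to 10 or more with limma 3.58.1 (trend) in R 4.3.3 with calls at 0.05 after Benjamini-Hochberg adjustment over all genes: SP against scr over 3 sets (SP of set 1 averaged), and scr, SP, 3p, 5p and SATS of sets 2 and 3 together. Fold changes on this scale understate low genes. The set was also fitted as a replicate block. Samples whose labels carry the same replicate number were read as replicate sets. They deviated together from their group means, with r of 0.77 to 0.82 (3 pairs) and 0.81 to 0.93 (panel of 10). Alternatives were pseudocounts of 10 and 0.1, no filter or a mean of at least 50, TMM factors, each library left out, 1 SP library in set 1, and, chosen after seeing the data, edgeR 4.0.16 on recovered reads. The limma fit was tested on simulated data with changes larger than the fitted fold changes of the hosts, so that the test does not cover changes of their size.

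The hosts and gene lists were chosen with earlier results of these data known. Named are the 7 hosts and *Stag1*, of each list the called genes with the largest rise and fall and a mean of at least 50, the neighbours, the snoRNA rows and the 5 genes most like the hosts, and other genes only where stated. The result of 1 gene list is not reported here.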

Additional observations from a re-analysis of the deposited data

Results flagged for a closer look

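*Snhg12* lay on opposite sides of scr in sets 1 and 2. Its log2 difference from scr of the set had a median of 1.19 in the 3 SP libraries of set 1 (0.95 to 1.21) and of −0.12 in the 4 knockdown libraries of set 2 (−0.21 to −0.03). *Snhg1* did so too, with a median of 0.11 in set 1 (0.06 to 0.44) and of −0.13 in set 2 (−0.20 to −0.09). In the untreated library of set 2, without *Stag1* siRNA, *Snhg12* was at −0.14 and *Snhg1* at −0.30, also below scr. Each set was read against its single scr library, and the difference between the sets was not tested. The same pattern between sets 1 and 2 was held by 8.80% of the 11058 genes whose mean value was 50 or more, and 2 of the 7 hosts held it.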

How the results depend on the processing

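No alternative gave or took away the call of a host: all 104 counts of hosts called were 0, and of 728 values of single hosts 698 kept their direction and 30 reversed, all of them where a library or set was left out. Leaving out 1 library leaves its group with 1 sample, which is assumed to vary like the other groups. The number of genes called depended on the pairing. With the replicate block it was 123 for SP, 47 for 3p, 391 for 5p, 436 for SATS and 537 for 5p against 3p in sets 2 and 3. In edgeR with the block, added after seeing the data, it was 134, 50, 397, 550 and 529 in the same order, and 66 for SP over 3 sets. The block changed no call of a host. With SP library 1a alone as the set 1 sample, 1 gene was called. TMM factors moved the median gene by at most 0.04 (log2) in any library. With libraries left out in turn, genes called for 5p ran from 1 to 1. The median log2 fold change of the hosts ran from −0.12 to 0.22 for 5p, from 0.0465 to 0.68 for SATS, from −0.05 to 0.19 for 3p and from −0.094 to 0.0081 for 5p against 3p. Single hosts that reversed had these log2 ranges. For SP over 3 sets, *Snhg3* ran from −0.0027 to 0.16 and *Snhg12* from −0.016 to 0.56. For SP in sets 2 and 3, *Snhg1* ran from −0.28 to 0.36, *Snhg3* from −0.043 to 0.33, *Snhg6* from −0.0082 to 0.42 and *Snhg12* from −0.044 to 0.012. For 3p, *Gas5* ran from −0.066 to 0.60, *Snhg1* from −0.21 to 0.092, *Snhg3* from −0.11 to 0.082, *Snhg5* from −0.035 to 0.27 and *Snhg6* from −0.05 to 0.19. For 5p, *Gas5* ran from −0.16 to 0.51, *Snhg5* from −0.091 to 0.22 and *Snhg8* from −0.0053 to 0.32. For SATS, *Snhg1* ran from −0.20 to 0.79, *Snhg3* from −0.053 to 0.15 and *Snhg12* from −0.10 to 0.059. For 5p against 3p, *Gas5* ran from −0.23 to 0.0375, *Snhg1* from −0.25 to 0.055, *Snhg5* from −0.13 to 0.016, *Snhg8* from −0.10 to 0.073 and *Snhg12* from −0.071 to 0.019. Where 1 library was left out of sets 2 and 3 the fit had no block, so that the difference between the sets enters these ranges. *Gas5* with 3p, for example, was above scr of the same set in both sets, although its range reaches below 0. What else moved each range was not tested. In set 1, 27 to 65 reads of *Snhg6* and 48 reads of *Snhg12* in scr limit the precision of a ratio.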
